A study of Mus musculus with 16 samples.

Results

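The 8 genes described here mark the oligodendrocyte lineage from precursor to maturing cell. They are Pdgfra and Cspg4 (precursor receptor and proteoglycan), Olig1, Olig2 and Sox10 (transcription factors), and Bcas1, Prr18 and Anln (maturing and myelinating cells). They were chosen by symbol in the platform annotation, out of 16593 genes on 25697 probes. Earlier results of these data were known at that choice, so counts and ranks set against all genes are a description. Of the 8 genes, 7 had a probe, with 9 probes in all, and no probe carried the symbol Sox10. The detection filter (a detection p of 0.05 or less on all 16 arrays) left 6 of them among 8419 genes tested, and Olig2 was not among the 6.

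RNA was measured in the left and right medial prefrontal cortex (mPFC, with the infralimbic and prelimbic areas) of C57BL/6 J male mice. Resilient and susceptible mice were defeated for 10 days, from the age of 8 weeks, by aggressive CD-1 mice, and tissue was taken 1 day after a social interaction test in which resilient mice spent more and susceptible mice less time near an unfamiliar CD-1 mouse than in its absence. Control mice were housed in the same way and never defeated. There were 2 control, 3 resilient and 3 susceptible arrays for each side, and RNA of single mice was pooled in equal amounts before hybridization, so p-values measure the spread between arrays and not between mice. The labels name 7 mice for each extract and not which mice each array holds, so the arrays of a group may be repeats of shared mice or of 1 pool, and left and right may come from the same mice. The resilient and susceptible groups were defined by behavior after the stress, and mice with intermediate scores were left out.

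Oligodendrocytes arise in the adult brain from precursor cells that carry the receptor PDGFRα, which answers the growth factor PDGF, and the proteoglycan NG2, the product of Cspg4. OLIG1, OLIG2 and SOX10 hold the lineage fate and turn on myelin genes as the cells mature. Bcas1 marks newly formed and early myelinating cells, Prr18 is a little studied gene of mature oligodendrocytes, and Anln encodes anillin, a cytokinesis protein that in mouse myelin scaffolds septin filaments.

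Promoter sequence is shown for Prr18 and Anln, whose signals moved together across the arrays, and for Cspg4, a precursor gene that was called in 0 of the 12 comparisons. Each is the stretch of 250 bases before the RefSeq start (GRCm38.p6), written from 5′ to 3′ on the strand of the gene, at chr17:8340156-8340405 (plus strand) for Prr18, chr9:22389207-22389456 (minus strand) for Anln and chr9:56864854-56865103 (plus strand) for Cspg4. Capitals mark matches, on either strand, to ACAAT or ACAAAG, the core letters read by SOX proteins, and to CANNTG, the E-box read by OLIG and other basic helix-loop-helix proteins.
Prr18: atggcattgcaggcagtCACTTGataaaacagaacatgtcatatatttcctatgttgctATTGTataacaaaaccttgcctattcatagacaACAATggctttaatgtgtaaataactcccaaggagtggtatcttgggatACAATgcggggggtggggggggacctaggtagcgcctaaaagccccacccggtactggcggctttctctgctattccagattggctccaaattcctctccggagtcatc
Anln: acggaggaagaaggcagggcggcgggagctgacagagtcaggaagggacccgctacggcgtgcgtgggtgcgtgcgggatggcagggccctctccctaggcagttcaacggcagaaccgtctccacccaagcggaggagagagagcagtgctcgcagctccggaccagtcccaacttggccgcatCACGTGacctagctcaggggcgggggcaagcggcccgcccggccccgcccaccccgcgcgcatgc
Cspg4: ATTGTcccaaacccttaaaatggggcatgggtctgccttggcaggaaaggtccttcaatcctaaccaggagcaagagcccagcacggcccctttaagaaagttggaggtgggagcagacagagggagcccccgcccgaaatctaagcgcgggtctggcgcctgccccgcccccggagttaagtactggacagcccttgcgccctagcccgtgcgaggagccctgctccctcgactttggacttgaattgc

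The Prr18 window held 3 matches to ACAAT, at 191, 158 and 109 bases before the start, and 1 E-box at 233 bases. At least 3 matches to ACAAT were found in 1.35% of 32851 promoters, and at least 1 match in 27.7%. The Anln window held 1 E-box, at 65 bases, and the Cspg4 window held 1 ACAAT, at 250 bases. An E-box occurred in 66.2% and ACAAAG in 16.5% of the promoters, and no match in the 3 windows overlapped another. RefSeq listed a second start for Prr18, whose window held 1 ACAAAG and neither of the other motifs. Of the 8 genes, 5 had an entry in the promoter table, and of the other windows that of Pdgfra held 1 E-box and that of Olig2 1 ACAAT.

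Raw signals are given first. Pdgfra had a raw signal of 516.6 to 952.3 and was detected on every array. Cspg4, which pericytes also express, gave 89.2 to 120 and passed the filter close to background. The transcription factor Olig1 gave 3291.8 to 6390.3. Raw levels depend on the probe and are not set against each other between genes. Among the maturing-cell genes, Bcas1 gave 2691.9 to 6639.8, Prr18 754.8 to 1888.7 and the brightest Anln probe 257.2 to 624.8. A dimmer Anln probe (100.8 to 147.9) was detected on all 16 arrays, and the remaining Anln probe was detected on 0.

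The Olig2 probe gave 82.5 to 101.4 and was detected on 2 of 16 arrays, 1 resilient left and 1 resilient right. Its signal was therefore not above background in the control and susceptible groups, and no difference is given for it. In a fit of all 25697 probes without the filter, the lowest adjusted p of Olig2 over the 12 comparisons was 0.602. Mean signals per array were 466 to 567 for the first 8 arrays of the deposited table and 376 to 463 for the last 8, so levels below are quantile-normalized log2 signals. All 4 control arrays, and replicate 1 of each stressed group, lay among the first 8.

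In susceptible mice the maturing-cell genes had less signal in the left mPFC than in the right, while neither precursor gene differed by the test. Of the precursor genes, Cspg4 lay close to background, so its small difference says little about its RNA. Fewer oligodendrocytes and less RNA per cell cannot be told apart in these tissue samples. Cortical layer and meningeal markers also differed between the sides of susceptible mice, as given below, and their part was not tested. Of the 6 genes tested, 3 were called (adjusted p below 0.05), all lower on the left, against 5.21% of all genes called in either direction and 2.45% called lower on the left.

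**Figure D1:**
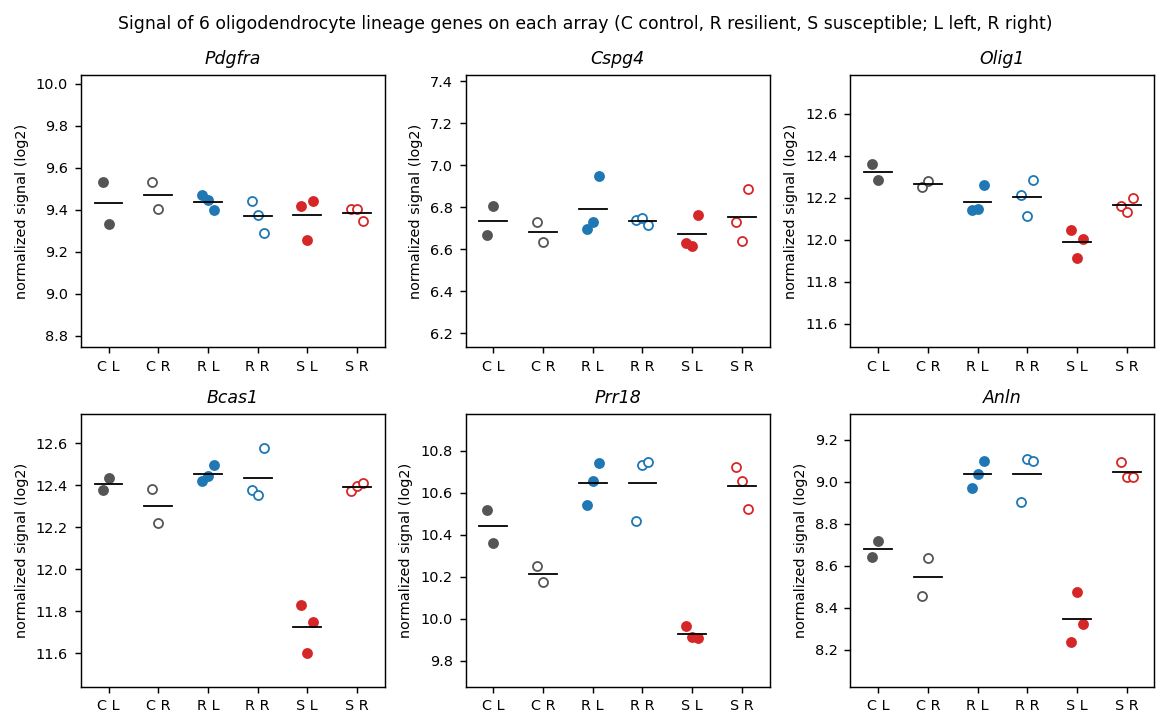
Quantile-normalized log2 signal (vertical axis) of the 6 genes tested, with 1 point for each of the 16 arrays and a line at each group mean. All panels span the same number of log2 units. The 3 susceptible left arrays are the lowest of all for Olig1, Bcas1 and Prr18, and no such gap is seen for Pdgfra or Cspg4.

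Bcas1, the marker of early myelinating cells, stood at 11.83, 11.60 and 11.75 in the left and at 12.37, 12.40 and 12.41 in the right mPFC of susceptible mice. All 3 left arrays lay below all 3 right arrays, and the right arrays lay close together. Its log2 L/R, the left minus the right mean, was -0.67 ± 0.07 (SE, n = 3 per side), 1.59-fold lower on the left, with an adjusted p of 1.74e-07.

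Prr18 stood at 9.96, 9.91 and 9.91 on the left and at 10.72, 10.66 and 10.52 on the right. The left arrays were tightly grouped and did not reach the right ones. The log2 L/R of Prr18 was -0.71 ± 0.07, 1.63-fold lower on the left (adjusted p = 2.21e-07).

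Anln stood at 8.24, 8.47 and 8.32 on the left and at 9.09, 9.02 and 9.02 on the right. Again no left array reached a right one. The log2 L/R of Anln was -0.70 ± 0.07, 1.63-fold lower on the left (adjusted p = 1.17e-07). Its dimmer probe gave -0.23 ± 0.06 (adjusted p = 0.0342 over 11922 detected probes), in the same direction and smaller. By size of difference, Prr18, Anln and Bcas1 were the 10th, the 11th and the 15th of the 8419 genes.

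Olig1, the factor that promotes myelin repair in mice, stood at 12.05, 11.91 and 12.01 on the left and at 12.16, 12.13 and 12.20 on the right of susceptible mice. The sides did not overlap, but the difference of -0.18 ± 0.06 did not pass the test (adjusted p = 0.108, 95% confidence interval -0.30 to -0.05). Including Olig1, 4 of the 6 genes had sides that did not overlap, all with the left below, against 20.1% of all genes in either direction and 8.94% with the left below.

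Pdgfra, the receptor that keeps precursors dividing, stood at 9.42, 9.26 and 9.44 on the left and at 9.40, 9.40 and 9.35 on the right. The sides overlapped, and the log2 L/R was -0.01 ± 0.07 (adjusted p = 0.957, 95% confidence interval -0.15 to 0.13). Cspg4 gave -0.08 ± 0.07 (adjusted p = 0.648, 95% confidence interval -0.23 to 0.07), also with overlapping sides. Whether one gene differed between sides more than another was not tested.

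**Figure D2:**
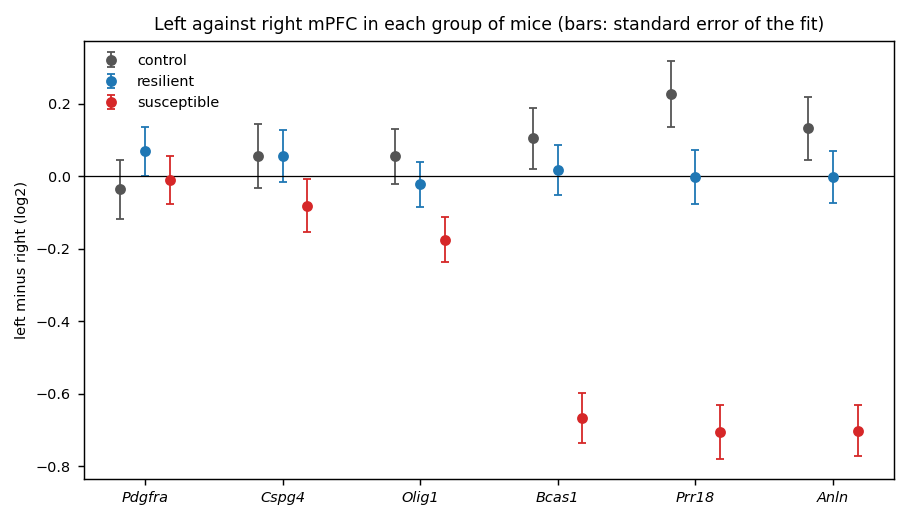
Log2 L/R (vertical axis, left minus right mean) of the 6 genes in control (grey, n = 2 per side), resilient (blue, n = 3) and susceptible mice (red, n = 3), with the standard error of the fit as bars. Bcas1, Prr18 and Anln lie at -0.67, -0.71 and -0.70 in susceptible mice and between -0.0020 and 0.23 in the other mice.

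Resilient mice went through the same stress. Of the 6 genes, 0 were called between their left and right mPFC, against 0.0356% of all genes (3 genes, with 368 at an unadjusted p below 0.05). The log2 L/R was 0.02 ± 0.07 for Bcas1 (95% confidence interval -0.12 to 0.16), -0.0012 ± 0.07 for Prr18, -0.0020 ± 0.07 for Anln, -0.02 ± 0.06 for Olig1, 0.07 ± 0.07 for Pdgfra and 0.06 ± 0.07 for Cspg4. Sides that did not overlap were found for 0 of the 6 genes, against 8.84% of all genes.

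In control mice 0 of the 6 genes were called between the sides, against 0.0119% of all genes (1 gene, with 420 at an unadjusted p below 0.05). Prr18 was on average higher on the left, with 10.52 and 10.36 against 10.25 and 10.17 on the right. Its log2 L/R of 0.23 ± 0.09 (unadjusted p = 0.0191, adjusted p = 0.829) did not pass the test. Bcas1 gave 0.10 ± 0.08 and Anln 0.13 ± 0.09. The sides did not overlap for Olig1, Prr18 and Anln, 3 of the 6 genes, all with the left above, against 37.2% of all genes (18.7% with the left above) with 2 arrays a side.

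The difference between the groups of mice in log2 L/R was itself tested. Susceptible against control mice, 3 of the 6 genes were called, all lower, against 2.63% of all genes (1.39% called lower), with differences of -0.77 ± 0.11 for Bcas1 (adjusted p = 5.46e-05), -0.93 ± 0.12 for Prr18 (adjusted p = 1.45e-05) and -0.83 ± 0.11 for Anln (adjusted p = 2.84e-05). Susceptible against resilient mice, the same 3 genes were called, against 2.15% of all genes (1.12% called lower). These differences were -0.69 ± 0.10 for Bcas1 (adjusted p = 6.64e-05), -0.70 ± 0.11 for Prr18 (adjusted p = 0.000126) and -0.70 ± 0.10 for Anln (adjusted p = 6.96e-05). Both comparisons use the susceptible arrays. Olig1 gave -0.23 ± 0.10 (adjusted p = 0.286) and -0.15 ± 0.09 (adjusted p = 0.517), while Pdgfra and Cspg4 lay between -0.14 and 0.03 in both.

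When the values of each array were instead scaled to a common median, 0 of the 6 genes were called for susceptible against resilient mice, with the differences unchanged in direction (-0.71 for Bcas1, -0.74 for Prr18 and -0.72 for Anln). For susceptible against control mice Bcas1 also lost its call (-0.86, adjusted p = 0.0681), and Prr18 and Anln kept theirs. With quantile normalization, the difference in log2 L/R of resilient against control mice was called for 0 of the 6 genes and 0% of all genes (329 genes at an unadjusted p below 0.05).

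Each side was then compared with the same side of control mice. In the left mPFC of susceptible mice, 4 of the 6 genes were lower than in control mice, against 4.24% of all genes called and 2.33% called lower. Bcas1 fell from 12.38 and 12.43 in controls to the 11.60 to 11.83 given above, a change of -0.68 ± 0.08 (adjusted p = 9.23e-06). Prr18 changed by -0.51 ± 0.08 (adjusted p = 0.00045), from 10.52 and 10.36.

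Olig1 was the transcription factor that also fell there, from 12.36 and 12.28 in controls, a change of -0.33 ± 0.07 (adjusted p = 0.00465). Anln changed by -0.33 ± 0.08 (adjusted p = 0.0132), from 8.64 and 8.72, while its dimmer probe gave -0.15 ± 0.07 and did not pass the test (adjusted p = 0.243). Susceptible left and control left arrays did not overlap for these 4 genes, against 37.7% of all genes (16.5% with susceptible mice below). Without control left replicate 1, the calls of Olig1 (adjusted p = 0.132) and Anln (0.0865) were lost, and that of Anln was also lost without control left replicate 2 (0.155) or susceptible left replicate 1 (0.0521). Pdgfra changed by -0.06 ± 0.07 (adjusted p = 0.717) and Cspg4 by -0.07 ± 0.08 (adjusted p = 0.711).

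In the right mPFC of susceptible mice, Prr18 and Anln were higher than in control mice, 2 of the 6 genes, against 4.88% of all genes called and 2.3% called higher. Prr18 rose by 0.42 ± 0.08 (adjusted p = 0.00271), from 10.25 and 10.17 in controls. Anln rose by 0.50 ± 0.08 (adjusted p = 0.000279), from 8.46 and 8.64, and its dimmer probe by 0.27 ± 0.07 (adjusted p = 0.0318). Bcas1 did not pass the test, at 0.09 ± 0.08 (adjusted p = 0.575), nor did Olig1 at -0.10 ± 0.07 (adjusted p = 0.455). Susceptible right arrays did not overlap those of controls for Prr18 and Anln, which lay above, and for Pdgfra and Olig1, which lay below, against 35.9% of all genes.

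**Figure D3:**
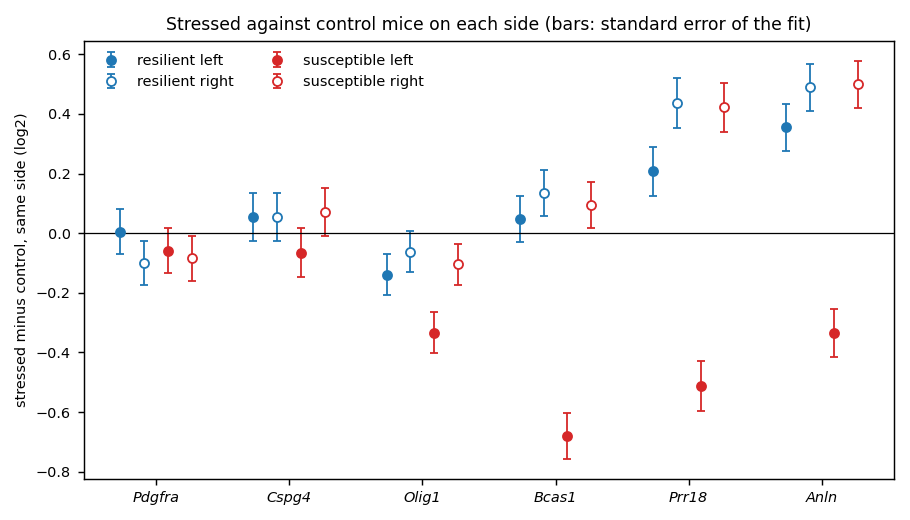
Change against control mice on the same side (vertical axis, log2) for resilient (blue) and susceptible (red) mice, left (filled) and right (open), with the standard error of the fit as bars. Prr18 and Anln lie above 0 in the right mPFC of both stressed groups and below 0 in the susceptible left, where Bcas1 lies at -0.68 and Olig1 at -0.33.

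Resilient mice had higher Anln on both sides by the brighter of its probes. In their left mPFC, Anln (8.97, 9.04 and 9.10) rose by 0.36 ± 0.08 (adjusted p = 0.0126), the 1 gene of 6 called, against 2.7% of all genes (1.37% called higher). That call was lost without control left replicate 1 (adjusted p = 0.223), control left replicate 2 (0.073) or resilient left replicate 3 (0.0688), and with position in the deposited table (first or last 8 arrays) as a block (0.0709). Prr18 stood 0.21 ± 0.08 above control there (adjusted p = 0.200), Bcas1 0.05 ± 0.08 above and Olig1 at -0.14 ± 0.07 (adjusted p = 0.319).

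In the right mPFC of resilient mice, Prr18 (10.47, 10.73 and 10.75) rose by 0.44 ± 0.08 (adjusted p = 0.00319) and Anln (8.90, 9.11 and 9.10) by 0.49 ± 0.08 (adjusted p = 0.000743). The dimmer Anln probe gave 0.19 ± 0.07 on the right (adjusted p = 0.184) and 0.17 ± 0.07 on the left (adjusted p = 0.25), and passed the test on neither side. Prr18 and Anln were 2 of the 6 genes, against 2.26% of all genes (1.18% called higher). Resilient and susceptible mice share the control arrays, so these values stand side by side with those of susceptible mice and do not add to them. Without control right replicate 2, the call of Prr18 was lost in resilient (adjusted p = 0.101) and in susceptible mice (0.0717). With median scaling, which shifted the median of all genes by -0.12 to -0.16 in these comparisons, none of the called rises of Prr18 and Anln still passed the test, with changes of 0.14 to 0.33.

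Set against each other, the stressed groups differed in the left mPFC. Bcas1 was lower in susceptible than in resilient mice by 0.73 ± 0.07 on the log2 scale (1.66-fold, adjusted p = 8.25e-08), Prr18 by 0.72 ± 0.07 (1.65-fold, adjusted p = 2.42e-07) and Anln by 0.69 ± 0.07 (1.61-fold, adjusted p = 2.21e-07). These were 3 of the 6 genes, against 2.38% of all genes called and 1.52% called lower. Olig1 gave -0.19 ± 0.06 and did not pass the test (adjusted p = 0.109), though it did with the values normalized by the authors (0.0477).

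On the right, 0 of the 6 genes were called between susceptible and resilient mice, against 0.831% of all genes (70 genes). The largest difference there was -0.04 ± 0.07, for Bcas1, with a 95% confidence interval of -0.18 to 0.10. By order of mean level, susceptible left was the lowest group for Bcas1 (11.73 ± 0.12, SD, n = 3), Prr18 (9.93 ± 0.03) and Anln (8.34 ± 0.12), and both control groups came next for Prr18 (10.21 ± 0.05 right, 10.44 ± 0.11 left) and Anln (8.55 ± 0.13 right, 8.68 ± 0.06 left). The remaining groups lay at 10.63 to 10.65 for Prr18 and 9.04 to 9.05 for Anln, closer together than their SDs. Pdgfra ranged from 9.37 to 9.47 and Cspg4 from 6.67 to 6.79 over the 6 group means, no wider than the SD of the most variable group.

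**Figure D4:**
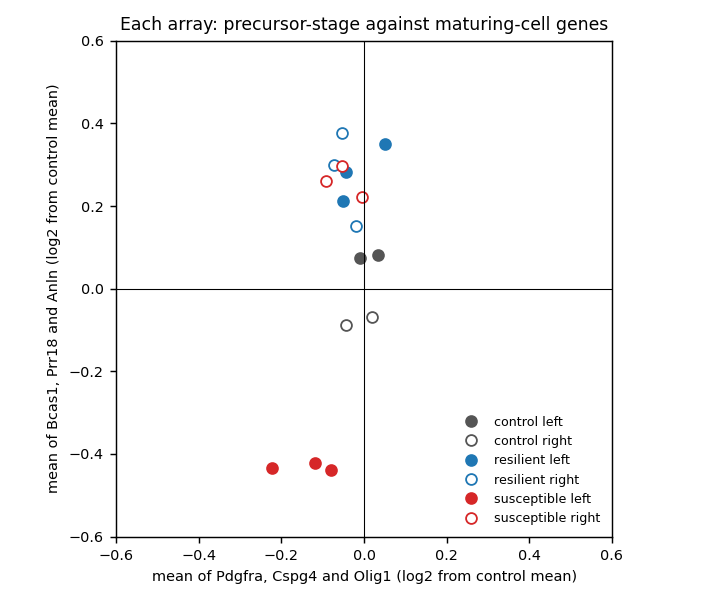
Mean log2 signal of Pdgfra, Cspg4 and Olig1 (horizontal axis) against that of Bcas1, Prr18 and Anln (vertical axis), each gene taken relative to its mean over the 4 control arrays. Each point is 1 array, filled for left and open for right. The 3 susceptible left arrays lie apart on the vertical axis, at -0.44 to -0.42.

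Averaged over Bcas1, Prr18 and Anln and taken relative to control, the 3 susceptible left arrays stood at -0.44 to -0.42 and the susceptible right arrays at 0.22 to 0.30. Resilient arrays stood at 0.21 to 0.35 on the left and 0.15 to 0.38 on the right. The mean of Pdgfra, Cspg4 and Olig1 ran from -0.22 to -0.08 in susceptible left arrays and from -0.09 to 0.05 in the other 9 stressed arrays, with Olig1 the gene that had passed the test against control.

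The genes were also set beside each other across the 16 arrays, as a description, since all share their arrays. Prr18 and Anln gave a Pearson r of 0.94 (0.39 after the group means were taken out), Bcas1 and Prr18 0.88 (0.31) and Olig1 and Bcas1 0.79 (0.65). For Bcas1 and Anln r was 0.77, and -0.31 within groups. Pdgfra and Anln gave -0.21, and -0.77 within groups. The values for Bcas1, Prr18 and Anln were thus all lower once the group means were taken out.

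By the same measure, the genes most like Bcas1 were Tspan2 (r = 0.94), Mbp (0.93) and Enpp6 (0.92), which are oligodendrocyte genes. Those most like Prr18 were Fa2h (0.97), which encodes a fatty acid hydroxylase that makes myelin lipids, Insc (0.96) and the myelin gene Mobp (0.95). Nearest to Anln were Itgb4 (0.95), Cd82 (0.94) and Gab1 (0.94). Olig1 lay nearest to 2610044O15Rik8 (0.88), Trim59 (0.87) and Inppl1 (0.87), Pdgfra to Csnk2a2 (0.85), Septin2 (0.78) and Copb2 (0.77), and Cspg4 to Polr2d (0.84), Phc1 (0.77) and Ndel1 (0.76).

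Other genes of the lineage were read in the same comparison of left and right in susceptible mice, where the median over all genes was 0.0035. Of 12 further precursor markers, 6 were tested and 0 were called, against 5.21% of all genes. At that share a list of 6 genes would mostly hold none. Their median was 0.07, with a range of -0.05 to 0.12. Cspg5, a proteoglycan gene, and Matn4, a matrix gene, both gave 0.12, and Megf11 gave 0.07. Of the 4 PDGF ligand genes, 3 were tested and 0 were called (median 0.03), against the same 5.21%, with Pdgfb at 0.15 ± 0.07 (adjusted p = 0.267).

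Among 17 lineage transcription factors beyond the 3 above, 11 were tested and 1 was called, against 5.21% of all genes (2.45% called lower on the left). The called gene was Sox5, a SOX factor that in mouse spinal cord delays terminal differentiation and is also a gene of deep-layer neurons, at -0.26 ± 0.07 (adjusted p = 0.018). Id2 (-0.16), Zfp536 (0.12) and St18 (-0.11) followed by size and did not pass the test, and the median was -0.07. Of 9 markers of newly formed oligodendrocytes, 7 were tested and 1 was lower on the left, against the same 2.45%. It was Enpp6, a choline phosphodiesterase, at -0.59 ± 0.06 (adjusted p = 3.06e-07). Itpr2 (0.12), Nfasc (-0.10) and Gpr17 (-0.07) did not pass the test, and the median was -0.02.

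Most of the mature genes tested were lower on the left. Of 25 markers of mature oligodendrocytes outside compact myelin, 14 were tested and 13 were lower on the left, against 2.45% of all genes, with a median of -0.41. Trf, the iron carrier transferrin, gave -0.75 ± 0.07, Fa2h -0.65 ± 0.06, Ugt8a, which makes galactocerebroside, -0.59 ± 0.07 and Cldn11, a tight junction protein of myelin, -0.58 ± 0.06. The gene not called was Tubb4a (-0.03). Of 10 compact myelin genes, 9 were tested and 7 were lower on the left, against the same 2.45%, with a median of -0.55, led by Mog (-0.68 ± 0.06), Mobp (-0.61 ± 0.07), Mbp (-0.58 ± 0.06) and Mal (-0.56 ± 0.08). Cd9 (-0.22, adjusted p = 0.0665) and Pmp22 (-0.07) did not pass the test.

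Because anillin works with septins in myelin and in dividing cells, both sets were read. Of 4 septins of myelin, 3 were tested and 0 were called, against 5.21% of all genes, with Septin7 at -0.13 ± 0.09. Of 20 genes of cytokinesis and cell division, 16 had a probe and 3 were detected on every array, Pcna (-0.04), Mcm2 (-0.02) and Mcm5 (0.03). Of these 3, 0 were called, against the same 5.21%. The mitotic genes Top2a, Cdk1 and Ccnb2 were detected on 0 arrays.

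Against control on the left, most of the mature genes tested were again lower. In susceptible mice, 8 of 9 compact myelin genes and 9 of 14 other mature markers were lower than in control mice, against 2.33% of all genes, with medians of -0.43 and -0.45. Of the newly formed markers, Enpp6 (-0.57 ± 0.07, adjusted p = 2.66e-05) and Gpr17, a receptor that marks committed precursors, (-0.27 ± 0.07, adjusted p = 0.0229) were lower, 2 of 7. Of the precursor markers 0 of 6 were called, against 4.24% of all genes called in either direction, with a median of 0.03. Other lists changed there too. Of 11 lineage transcription factors 2 were lower, Id2 (-0.48 ± 0.12, adjusted p = 0.0159) and Zeb2 (-0.37 ± 0.08, adjusted p = 0.00415), as was 1 of 3 septins, Septin7 (-0.50 ± 0.10, adjusted p = 0.00481), while 1 of 3 PDGF ligand genes, Pdgfb, was higher (0.28 ± 0.08, adjusted p = 0.0369). In the right mPFC of susceptible mice 5 of 14 mature markers and 2 of 9 compact myelin genes were higher than in control mice, against 2.3% of all genes, and 0 of either list were lower. Resilient mice were similar on the right, with 4 of 14 and 2 of 9 higher, against 1.18% of all genes. On their left 2 of 14 and 1 of 9 were higher, against 1.37%.

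Markers of other cells and of cortical layers moved in the same left and right comparison. Of 8 layer 2/3 neuron markers, 5 were tested and 3 were higher on the left, Cux2 (1.07 ± 0.08), Nectin3 (0.78 ± 0.06) and Stard8 (0.69 ± 0.07), against 2.77% of all genes called higher on the left. Their summed signal was 2502 to 2622 on the left and 1592 to 1712 on the right of susceptible mice, with control mice at 2199 to 2354 and resilient mice at 1940 to 2119 over both sides. Of 13 layer 6 and 6b markers, 10 were tested and 5 were lower on the left, against 2.45% of all genes, led by Ccn2 (also called Ctgf, -0.92 ± 0.06), Rprm (-0.83 ± 0.08) and Sulf1 (-0.67 ± 0.06).

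The layer 6 and 6b markers summed to 11696 to 12404 on the left and 16059 to 17130 on the right of susceptible mice, to 11986 to 12927 in control and 15363 to 16126 in resilient mice. Of 10 meningeal fibroblast markers, 4 were tested and all 4 were higher on the left, against 2.77% of all genes, Slc13a4 and Dcn by 0.83, Gjb2 by 0.65 and Igf2 by 0.55. Their sum was 1591 to 1690 on the left and 1009 to 1051 on the right, against 1202 to 1418 in control and 1343 to 1437 in resilient mice. The collagen genes Col1a1 and Col3a1 were detected on 0 arrays. The part of the layer and meningeal cells in the differences of Bcas1, Prr18 and Anln was not tested. Nor was their part in the values of Pdgfra, Cspg4 and Olig1.

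Markers of other cell classes were read in the same comparison, where 5.21% of all genes were called. Lists this short are expected to hold few called genes or none at that share. Called genes were 0 of 8 astrocyte, 0 of 5 endothelial, 0 of 6 pericyte (Cspg4 included), 1 of 7 microglia (C1qc, 0.26 ± 0.06) and 1 of 6 pan-neuronal markers (Nefm, -0.44 ± 0.10). The summed signals of the astrocyte markers were 24392 to 25440 on the left and 22580 to 23848 on the right of susceptible mice, and those of the pan-neuronal markers 35905 to 36983 and 36220 to 37397, so the sides overlapped for neurons but not for astrocytes.

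The brighter first 8 and the dimmer last 8 arrays of the deposited table gave the same direction for the maturing-cell genes in susceptible mice. Among the first 8, with 1 array a side, log2 L/R was -0.54 for Bcas1, -0.76 for Prr18 and -0.86 for Anln. Among the last 8, with 2 arrays a side, it was -0.73, -0.68 and -0.63. Olig1 gave -0.11 and -0.21, and Pdgfra 0.02 and -0.02. Among the first 8, where all control arrays lay, the 1 susceptible left array stood below control left by -0.58 for Bcas1, -0.48 for Prr18, -0.44 for Anln and -0.28 for Olig1. There the 1 resilient right array gave 0.25 for Prr18 and 0.36 for Anln, smaller than the 0.44 and 0.49 over all arrays. The 1 resilient left array gave 0.10 and 0.29 (0.21 and 0.36 over all), and the 1 susceptible right array 0.51 and 0.55 (0.42 and 0.50).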

How the data were processed

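RNA of left and right mPFC was read on 16 Illumina MouseRef-8 v2 arrays, processed by the authors with GenomeStudio 1.0.6. The deposited average signal is an intensity on a linear scale, without background subtraction. The deposited detection score lies between 0 and 1, and 1 minus this score was used as detection p. A further set of values, deposited by the authors, was normalized on a log2 scale with lumi, and runs from 6.91 to 15.03 with medians of 7.277 to 7.278, not centered and higher for more RNA, whose method and version are not given in the sources used here. This set served as an alternative.

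Quantile normalization of the log2 raw signals was done in limma 3.58.1 (R 4.3.3). Probes needed a detection p of 0.05 or less on all 16 arrays (11922 probes, 700 without a symbol), and the brightest detected probe of each gene was used (8419 genes). One linear model with 6 groups was fitted with lmFit and eBayes (10 residual degrees of freedom, prior SD 0.0826), 12 comparisons were taken from it, and two-sided p-values were adjusted by Benjamini-Hochberg over all genes at a threshold of 0.05. The fit and the adjustment were tested on simulated data, and the normalization, detection filter and probe choice were not. The number of arrays limits the precision. No pair of arrays was identical. Labels name 7 mice for each extract.

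The genes and lists were chosen with earlier results of these data known. Named were all 8 genes, up to 4 tested genes of each list with the largest left and right difference in susceptible mice, and the 3 genes most correlated with each gene tested. Tubb4a, Cd9, Pmp22, Top2a, Cdk1, Ccnb2, Col1a1 and Col3a1, and Gpr17, Zeb2, Id2, Septin7 and Pdgfb against control, were chosen after their values were seen. Promoters came from RefSeq, with 5 of the 8 genes matched. Plots were made in Python 3.11.15 (matplotlib 3.10.9). Alternatives covered normalization, background, detection filter, probe choice, samples in the fit, variance model, array weights, blocks and leaving out each array.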

Additional observations from a re-analysis of the deposited data

Results flagged for a closer look

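The left and right difference of 3 genes in susceptible mice differed from that in the other mice by a test of the difference itself (limma, adjusted over 8419 genes). Against control mice, log2 L/R was lower by -0.77 ± 0.11 for Bcas1 (adjusted p = 5.46e-05), -0.93 ± 0.12 for Prr18 (adjusted p = 1.45e-05) and -0.83 ± 0.11 for Anln (adjusted p = 2.84e-05). Against resilient mice it was lower by -0.69 ± 0.10 for Bcas1 (adjusted p = 6.64e-05), -0.70 ± 0.11 for Prr18 (adjusted p = 0.000126) and -0.70 ± 0.10 for Anln (adjusted p = 6.96e-05). Single arrays were not tested as outliers within groups of 2 or 3.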

How the results depend on the processing

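The calls of Bcas1, Prr18 and Anln between left and right of susceptible mice held under all 29 alternatives, and no called difference of the 6 genes changed sign under any of them. Median scaling moved the median of all genes by up to -0.20 (susceptible left against control left) and left 36 genes called between the sides of susceptible mice, of which 30.6% were higher on the left, against 439 and 53.1% with quantile normalization. Against control it left 58 of 357 genes (3.45% higher, against 45.1%) for susceptible left, 16 of 411 (12.5% higher, against 47.2%) for susceptible right and 2 each for resilient left and right, of 227 and 190. It left 11 of 221 and 1 of 181 genes for the left and right difference of susceptible against control and resilient mice, 24 of 200 (4.17% higher, against 36%) for susceptible against resilient left and 7 of 70 for right. Of the 6 genes it called 0 in place of 3 for susceptible against resilient laterality, 0 in place of 1 for resilient left, and 0 in place of 2 for resilient right and susceptible right against control, and Bcas1 was not called for susceptible against control laterality (adjusted p = 0.0681). Position in the deposited table (first or last 8 arrays) as a block called 0 in place of 1 for resilient left against control, with 195, 235 and 108 genes in place of 357, 411 and 227 for susceptible left, susceptible right and resilient left. Leaving out 1 array gave 0 to 1 of the 6 genes for resilient left, 1 to 2 for resilient right (lowest without control right replicate 2), 2 to 4 for susceptible left (lowest without control left replicate 1) and 1 to 2 for susceptible right against control (lowest without control right replicate 2), and down to 38, 40, 76 and 108 genes of all tested. Without control left replicate 1, 125 genes in place of 221 were called for susceptible against control laterality, and without resilient right replicate 3, 37 in place of 70 for susceptible against resilient right. Array weights called 650 and 519 genes for susceptible and resilient left against control and 16 in place of 1 between the sides of control mice, where a fit of the compared groups alone called 23. No source says if same-numbered arrays share mice or a run. Deviations from the group means correlated above 0.1 in 3 of 8 pairs, and 12 of 16 arrays correlated best with their own number, a hint from the data and not the design. With 2 control arrays a side these deviations mirror each other, so both control pairs gave the same value (0.013) and their arrays match or fail together. The replicate block called 508 genes between the sides of susceptible mice, 3 of the 6 genes among them, and changed no call of the 6 genes. The cause of these changes was not tested. Cspg4 lay near background (raw signal 89.2 to 120), so its small differences say little about its RNA, though its SE was like that of the other genes.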
